A study of Saccharomyces cerevisiae with 9 samples.

Results

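Direct RNA sequencing reads a yeast transcript from its poly(A) tail, so the start of each nanopore read marks a 3′ end. The ends described here lie inside protein-coding genes of the minus strand, that is, at or above the low-coordinate edge of the gene (its 3′ edge) and below its high-coordinate edge (its 5′ edge). As deposited, 1879 of 46304 minus-strand coding end positions in WT met this rule, 6080 of 108518 in Bdp1AA and 338 of 23592 in Bdp1AA Rna15AA. They fell in 344, 954 and 68 genes. The tables list positions from 11, 2 and 11 reads up, so a common minimum signal of 0.83413 per position (20, 17 and 11 reads) was set, which left 961, 350 and 338 positions. Many of these are also listed under another gene, and the 352, 150 and 222 positions listed under 1 gene alone, in 101, 51 and 65 genes, are described in the results below unless stated otherwise. On the plus strand no end inside a coding gene is listed, so the strands are not compared.

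The groups address where RNA polymerase II transcripts end when the RNA polymerase III factor Bdp1 is removed from the nucleus, alone or together with the cleavage factor Rna15. All 9 libraries are total RNA of Saccharomyces cerevisiae strain HHY168 with the deletion fpr1delta::hphMX4, taken after 2 h of rapamycin, which in this anchor-away system exports a protein fused to FRB. WT carries no further tag, Bdp1AA carries BDP1-FRB::kanMX6, and Bdp1AA Rna15AA, called the double depletion, carries that tag and RNA15-FRB::His. Each group has 3 libraries pooled in 1 deposited column, so a spread between libraries cannot be computed, no test is given, and every interval is an exact (Clopper-Pearson) 95% interval of counting error only. The tables hold 24559388, 16661847 and 7740285 reads in the order WT, Bdp1AA and double depletion, and all values below follow that order.

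Most yeast mRNAs end a short way past the stop codon, where cleavage factors recognise AU-rich elements and poly(A) polymerase adds the tail. An end inside the coding region gives a transcript with no stop codon or a shortened one, and such transcripts are known targets of nonstop decay and the exosome. Many ribosomal protein and glycolytic genes of yeast exist as duplicated pairs whose coding regions are almost identical while their 3′ untranslated regions have diverged.

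The sequences at the largest inside ends are shown with those of their copies, so that the place where each pair stops being identical can be seen. Each line gives 20 bases up to the end in capitals and the next 10 in lower case, 5′ to 3′ on the gene's strand, from the RefSeq R64 genome. On the minus strand the peaks are at VIII:504476 (RPS4B), XVI:377292 (RPS6A), II:591713 (RPS6B), X:153505 (TIF2), II:88523 (RPS8A) and X:453684 (TDH2). The copies RPS4A and TDH3 are on the minus strand and TIF1 and RPS8B on the plus strand.
RPS4B: GAGCTCAACAAGGTTTGTAAacattttaaa
RPS4A: GAGCTCAACAAGGTTTATAAatttcataac
RPS6A: GCTTCTTCTTTGAAGGCTTAaagttagaaa
RPS6B: GCTTCTTCTTTGAAGGCTTAagtatgtctt
TIF2: ATTGCTACCTTGTTGAACTAatctctaagg
TIF1: ATCGCTACTTTGTTGAACTAagggagacaa
RPS8A: GATTGACTGCTAAGAAATAGatgaaatgaa
RPS8B: GATTGACTGCTAAGAAATAGagataataag
TDH2: GAACACGTTGCCAAGGCTTAaatttaactc
TDH3: GAACACGTTGCCAAGGCTTAagtgaattta
In each pair the capitals end within the stop codon or on its last base, the next base is still shared, and the sequences then part. Printed positions carry 1 nt of doubt, so that next base may itself be the last base of the read. A second set shows ends away from such an edge, or in genes without a copy on another chromosome: the sodium pumps ENA5 (IV:527472), ENA2 (IV:531357) and ENA1 (IV:535242), then NSI1 (IV:493256), PET8 (XIV:625275), BAP2 (II:374944), PBN1 (III:34723), CCA1 (V:521475) and RNA15 (VII:416150), all minus strand.
ENA5: CGATCCATTTGAAGCGTATAgcacatccac
ENA2: CGATCCATTCGAAGCGTATAgtacttctac
ENA1: CGATCCATTCGAAGCGTATAgtacttctac
NSI1: TATAAACATATAAGAAGAAAatatcatatt
PET8: GGGCAAAAGCCAATGGCCAAagtcaagtgg
BAP2: TTTTAATGATTGCAGGTTTCattattcttt
PBN1: ACATCACTATATCTGAATGAacctatcggt
CCA1: AGGATTGAAGCTGAGTAAAAatgatgcagc
RNA15: AGGGGAGAATTTGGTGCATTttgaaactag

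Inside ends were a small share of the reads of minus-strand coding genes, and a handful of genes held nearly all of them. The inside share, which is inside reads over inside plus downstream reads, was 1.05% in WT (interval 1.04 to 1.06%), 0.897% in Bdp1AA (0.890 to 0.904%) and 0.751% in the double depletion (0.742 to 0.760%). These are 113663, 66774 and 26777 reads, or a signal of 4880, 3403 and 2030. RPS4B, RPS6A, TIF2, RPS6B, RPS8A and TDH2 had the largest inside signals in WT and in Bdp1AA. In the double depletion YLR154C-G (XII:462522-462671), an open reading frame whose sequence matches the ribosomal RNA gene RDN37-1, had 793 inside reads (signal 60.1), above the 758 of RPS8A. In WT and Bdp1AA 1156 and 400 inside reads of YLR154C-G are also listed for another gene and therefore not counted. Without these 6 genes 13428, 4860 and 4513 inside reads were left. The share is therefore carried by few loci and does not describe the typical gene: among genes with at least 60 reads, 93 of 2514, 44 of 2221 and 45 of 1481 had any inside end, which is 3.70%, 1.98% and 3.04%. Here and below, unless stated, WT values include ends before the middle of the gene, a part that the depletion tables do not cover.

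Ends lay overwhelmingly at the 3′ edge. The last 10% of the gene length held 92.7% of inside reads in WT, 96.6% in Bdp1AA and 89.2% in the double depletion, and the last 3 nt alone held 83.9%, 87.8% and 78.9%. Positions were spread more widely than reads, with a median relative position of 0.71, 0.87 and 0.82 on a scale where 0 is the 5′ edge and 1 the 3′ edge. Without the 6 genes above, the last 10% held 39.5%, 52.8% and 36.2% of inside reads, so the pile-up at the edge belongs mainly to them. At the boundary of the rule itself, the last 5 nt inside genes held 99231, 61080 and 22375 reads and the first 5 nt past genes 3463, 2062 and 1016.

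**Figure D1:**
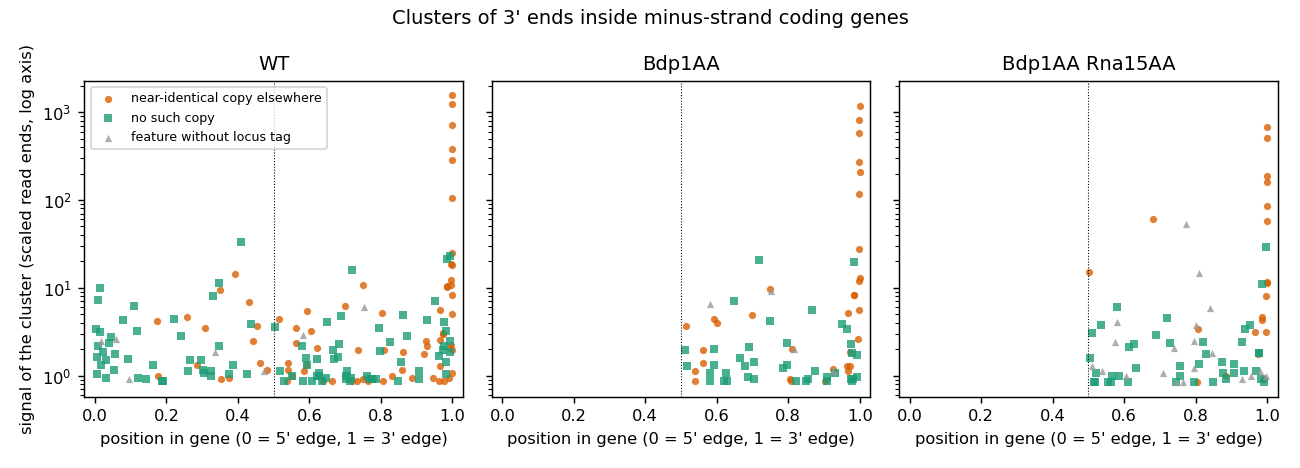
Signal of each cluster of inside ends (vertical log axis, scaled read ends) against its relative position in the gene (0 is the 5′ edge, 1 the 3′ edge) in the 3 groups. The highest points, all in genes with a near-identical copy, stand at the 3′ edge in every group, and left of the dotted middle line the Bdp1AA panel is empty.

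The tables differ in how they list the 5′ part of genes. WT lists 972 of its 1879 deposited inside positions before the middle of the gene. In the depletion tables the lowest relative position is 0.493 and 0.494, at most 1 nt before the middle. At the common minimum WT had 114 such positions in 45 genes, with 4772 reads. None of the 114 is listed for any gene in Bdp1AA and 7 are in the double depletion, each under another gene. This limit follows the middle of each gene, whatever its length, and a difference between WT and a depletion before that point cannot be told apart from it.

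**Figure D2:**
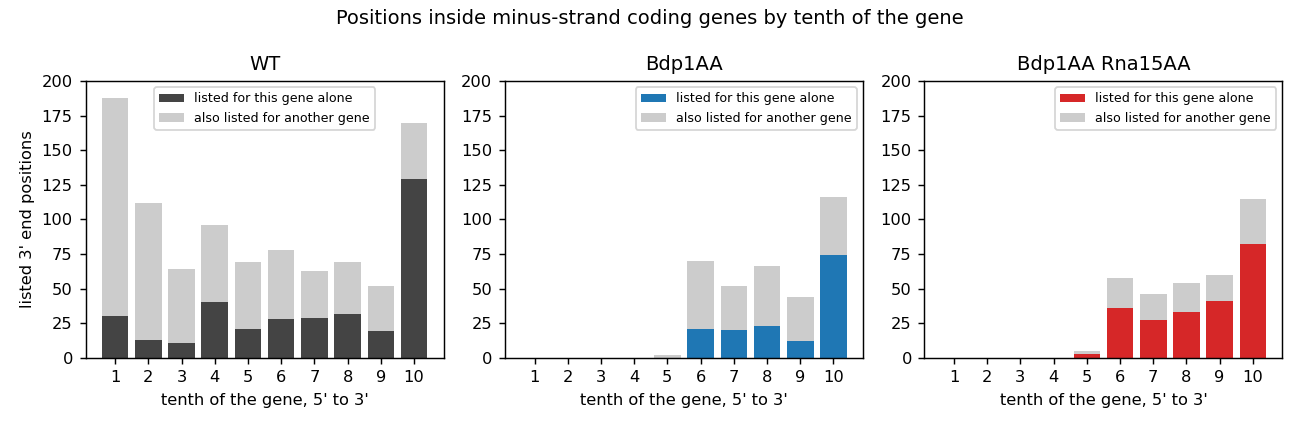
Number of listed inside positions in each of 10 equal bins of the gene from the 5′ to the 3′ edge, with positions listed for a single gene in colour and those also listed for another gene in grey. WT fills every bin, the depletion tables start at the middle, and the last bin holds 129, 74 and 82 unshared positions.

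Positions also listed under another gene were kept apart. They made up 609 of 961 positions in WT (63.4%), 200 of 350 in Bdp1AA (57.1%) and 116 of 338 in the double depletion (34.3%), with a signal of 4104, 2444 and 1567. In WT 405 of them were also listed for the upstream gene, against 46 and 45 in the depletion tables, and 183, 105 and 71 for an overlapping feature. Their median relative position was 0.28 in WT and 0.73 and 0.76 in the depletions. Such a read may belong to either gene, and none of these positions enters the inside reads of a gene. A position that is also listed as downstream of another minus-strand coding gene still counts among that gene's downstream reads.

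RPS4B (YHR203C, VIII:504476-505530) encodes the 40S ribosomal protein eS4 together with RPS4A. Its inside signal was 1556 in WT, 1167 in Bdp1AA and 687 in the double depletion, from 36250, 22908 and 9054 reads. The inside share was 43.1% (42.8 to 43.4%), 49.6% (49.1 to 50.04%) and 24.6% (24.1 to 25.01%), lowest in the double depletion with intervals that do not overlap. In all groups the peak was the last base of the stop codon, with 1 nt of doubt, while the main downstream end lay 130 nt past the gene. The copy RPS4A had peaks at its own last base but an inside share of 0.819%, 0.597% and 0.767%, beside 75853, 42149 and 19912 downstream reads.

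RPS6A (YPL090C, XVI:377291-378395) and RPS6B (YBR181C, II:591712-592774) encode eS6, a 40S protein phosphorylated under control of the rapamycin-sensitive TORC1 kinase. RPS6A had an inside signal of 1252, 809 and 509 and an inside share of 34.6%, 36.9% and 40.6%, highest in the double depletion. RPS6B had 376, 268 and 85.2, and its share of 16.9%, 20.1% and 10.4% was lowest there. Both peaks lay 1 nt before the 3′ edge, and the main downstream ends lay 141 and 83 nt past the genes in every group. Within this pair the order of the groups thus differed between the members. In the double depletion 4008 downstream reads of RPS6A are also listed for another gene, and without them its share would be 53.6%.

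TIF2 (YJL138C, X:153504-154691) encodes eIF4A, the RNA helicase of translation initiation, as does its copy TIF1. The inside signal was 720, 587 and 188, from 16766, 11516 and 2475 reads. The share was 51.3% (50.8 to 51.9%), 57.9% (57.2 to 58.6%) and 26.6% (25.7 to 27.5%). The low value in the double depletion rests on 5692 downstream reads at positions also listed for another gene, and without them it would be 68.5%, above the other groups. TIF1, on the plus strand, had 21691, 12125 and 3060 downstream reads and no listed inside end, as for every plus-strand gene.

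RPS8A (YBL072C, II:88523-89125), which encodes eS8, had a signal of 288, 206 and 57.5 and a share of 7.11%, 7.75% and 5.11%. For RPS8A 82516, 27633 and 11 downstream reads are also listed for another gene, and without them the share would be 57.0%, 16.5% and 5.11%. TDH2 (YJR009C, X:453683-454681) encodes a glyceraldehyde-3-phosphate dehydrogenase of glycolysis. Its signal was 111, 118 and 162 and its share 6.21% (5.98 to 6.45%), 10.2% (9.85 to 10.6%) and 6.52% (6.26 to 6.80%), highest in Bdp1AA. TDH2 was the member of the 6 whose inside signal was highest in the double depletion.

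The copies were examined for all clusters, in which ends at most 25 nt apart were joined. A cluster was counted as lying in a copied stretch when at least 90 of the 100 bases before it matched another locus with at least 90% identity. The match also had to reach within 2 bases of the end. Such clusters numbered 74 of 175 in WT, 32 of 75 in Bdp1AA and 20 of 82 in the double depletion, but they held 93.6%, 96.4% and 89.5% of the inside reads. Where they lay in the last 20 nt of the gene (22, 13 and 12 clusters), the 20 bases before the end matched the copy at a median of 100%, 95% and 97.5%, and the 20 bases after it at 40% in each group. Elsewhere in the gene the bases after the end still matched, at a median of 95%, 100% and 100%. Base by base, over the 23 distinct clusters at the 3′ edge, identity was 100% from 2 bases before the end to the first base after it and 21.7% at the second. Further upstream it fell as low as 78.3% at single bases of the last 20. With 1 nt of doubt in printed positions, the first base after the end may be the last base of the read. High identity before the end was required by the definition of a copied stretch, while the bases after the end were not used. The clusters of this set were, however, chosen for lying in the last 20 nt. The bases after them therefore lie mostly past the gene, where such pairs have diverged. Edges of copied genes without inside ends were not compared, so the drop cannot be tied to the ends themselves. Pairs with such ends in both members, as RPS6A and RPS6B, count once for each member. Under 50% of the 20 bases after the end matched in 16 of the 22, 10 of the 13 and 9 of the 12 clusters. COS5 (X:742848-743999), a subtelomeric gene of the DUP380 family, was among the others, and its copy COS7 was identical on both sides of the end.

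**Figure D3:**
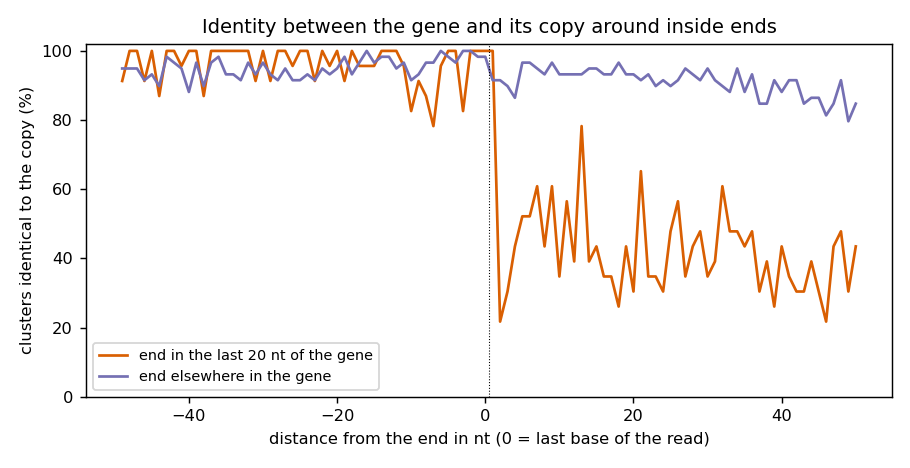
Share of clusters whose base is identical in the near-identical copy, by distance from the end (negative is before the end), for ends in the last 20 nt of the gene and for ends elsewhere. At the 3′ edge identity drops from 100% to 21.7% between the first and the second base after the end, and elsewhere it is 91.5% at both. Positions carry 1 nt of doubt. High identity before the end was required when copied stretches were chosen. For ends at the 3′ edge the following bases lie mostly past the gene, and edges without inside ends were not compared.

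Genes with a copy also had inside ends at lower signal. COS5 had 285, 236 and 41 inside reads. Its share was 30.3% and 34.3%, and in the double depletion no downstream end was listed. The ribosomal protein genes RPL42B, RPL13B and RPL7A had inside shares of 0.484%, 0.385% and 0.223% in WT and no inside end at the common minimum in the depletions.

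ENA5, ENA2 and ENA1 encode P-type ATPase pumps that export sodium and stand in a tandem array on chromosome IV. In all of them a single inside position was listed, 50 nt before the 3′ edge, and the position was the same in the 3 groups. ENA5 (IV:527422-530697) had 492, 382 and 145 inside reads and a share of 61.7% (58.2 to 65.0%), 86.4% (82.9 to 89.5%) and 86.3% (80.2 to 91.1%). ENA2 (IV:531307-534582) had 243, 161 and 62 and a share of 19.1%, 34.5% and 54.4%. ENA1 (IV:535192-538467) had 239, 161 and 57 and a share of 18.8%, 34.5% and 53.3%. ENA2 and ENA1 are identical around the end, so their reads cannot be assigned to either with certainty, and they count as a single observation. Their downstream reads were also equal, 1031 each in WT and 305 each in Bdp1AA. Whether the same reads are listed at both loci was not tested. Of the 4 listed pumps of this class, PMA1, the essential plasma membrane proton pump, had 22 of 17112 reads inside in WT (0.129%, interval 0.0806 to 0.195%), 0 of 9205 in Bdp1AA and 16 of 2914 in the double depletion (0.549%, 0.314 to 0.890%).

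Clusters outside such copied stretches, in genes with a locus tag, numbered 94, 39 and 42. They lay a median of 390, 133 and 124 nt before the 3′ edge, against 161, 42 and 7 nt for the copied ones. Their median size was 36, 25 and 17.5 reads, against 51.5, 82.5 and 128.5, and 5, 2 and 2 genes held clusters of both kinds. The clusters outside copied stretches held 6.05%, 3.09% and 5.43% of the inside reads. BAP2 (YBR068C, II:373861-375690), a permease for branched-chain amino acids, held the largest such cluster in WT. Its inside signal was 35.4 from 824 reads, a share of 13.9% (13.0 to 14.8%). The main BAP2 cluster stood at relative position 0.41, in the part of the gene that the depletion tables do not cover. PET8 (XIV:624975-625829), the mitochondrial carrier of S-adenosylmethionine, had 96 and 140 inside reads in WT and Bdp1AA, 300 nt before the 3′ edge. Its share was 12.7% (10.5 to 15.3%) and 22.1% (18.9 to 25.6%), and it is not listed in the double depletion. NSI1 (IV:492556-494268), a factor of rDNA silencing and RNA polymerase I termination, had 37 and 39 inside reads at the same position, at relative position 0.59, with a share of 15.7% (11.3 to 21.0%) and 48.1% (36.9 to 59.5%). In the double depletion NSI1 had 23 reads, none of them inside. YNL011C had 44 and 26 inside reads and a share of 20.7% and 21.5%, and 17 reads in the double depletion, none inside.

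The genes with the highest share in WT were mostly weakly expressed. In YIR018C-A (143 reads) and ADY4 (109 reads), a gene of the meiotic spindle pole, every listed read was inside, and neither is listed in the depletions. MNN4 (XI:63930-67466), a regulator of mannose phosphorylation, had 531 of 555 reads (95.7%) at a single position 25 nt before its 3′ edge. The stretch before that end is repeated within MNN4 itself with 91.1% identity. SLS1 (59.2%), which acts in mitochondrial gene expression, and SUE1 (55.0%), which acts in the breakdown of unstable cytochrome c, ended 19 and 24 nt from their 5′ edge. ATG40 (49.5%), the receptor for autophagy of the endoplasmic reticulum, NEJ1 (37.0%), a factor of DNA end joining, and YMR253C (43.3% of 60 reads) ended at relative positions 0.33, 0.44 and 0.33. All genes of this paragraph so far except MNN4 lay in the 5′ part that the depletion tables lack. GCN4, the activator of amino acid biosynthesis genes, had 232 of 16914 reads (1.37%) in a cluster 13 nt from its 5′ edge. HNT1 and EFM5 had single-copy clusters in introns, with 263 and 26 reads in WT.

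Very highly expressed genes had many inside positions and tiny shares. TDH3, the main glyceraldehyde-3-phosphate dehydrogenase gene, had 1871, 741 and 191 inside reads, which is 0.429%, 0.215% and 0.128% of its reads. PDC1, pyruvate decarboxylase, had 995, 210 and 161 (0.338%, 0.136% and 0.147%), and CCW12, a cell wall mannoprotein, 996, 598 and 60 (0.216%, 0.137% and 0.0481%). In WT some clusters of TDH3, PDC1 and CCW12 lay before the middle of the gene, which the depletion tables do not cover. The lower values in the depletions cannot be told apart from that limit. Of the 12 listed glycolysis genes 7 had inside ends in WT, 6 in Bdp1AA and 4 of 11 with 60 reads in the double depletion, against 3.70%, 1.98% and 3.04% of all genes with as many reads. The glycolysis list median was 0.0547%, 0.0137% and 0%, and over all genes it was 0% in each group. In WT these 7 genes had between 41629 and 436566 reads each.

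The other pathway lists were read against the same shares of all genes (3.70%, 1.98% and 3.04%), at which lists of this size would hold few or no such genes. None of 7 members of the Nrd1-Nab3-Sen1 list, 14 exosome genes or 28 ribosome biogenesis genes had any in WT, and none did in the depletions. Of 32 amino acid biosynthesis genes GCN4 and LYS9 (31 reads, 2.22%) had inside ends in WT (6.25% of the list) and none in the depletions. The depletion tables do not cover the part before the middle of the gene, where the GCN4 cluster lies. Its absence there cannot be told apart from that limit. Among 18 translation factor genes TIF2 alone had inside ends in each group, which is 5.88%, 5.88% and 6.25% of the members with 60 reads. Among 19 chaperone genes HSP78, the mitochondrial disaggregase, did so in the double depletion (97 of 1816 reads, 5.34%). Of 10 cleavage and polyadenylation factor genes none had inside ends in WT or Bdp1AA, and of 7 listed in the double depletion RNA15 did. AEP2, for which internal poly(A) sites have been reported, is listed in WT and the double depletion with no inside end.

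The strain genes were read from the same table. RNA15 (YGL044C, VII:416146-417036) encodes the cleavage factor IA subunit that contacts AU-rich RNA. It had 380 reads downstream in WT and 143 in Bdp1AA, none inside. In the double depletion, in which RNA15 carries the FRB tag, no read was listed downstream and 382 lay inside, a signal of 28.97, with the peak 4 nt before the 3′ edge. FPR1, given as deleted in all groups, had no inside end in any table. It had 30 downstream reads at the common minimum in WT and none in the depletions. Ends past a gene do not show that its coding region is present, so these WT reads put that label in question without deciding it. Every direction against WT is drawn with that reservation.

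Which genes changed their inside share after Bdp1 depletion was examined in 2202 genes with at least 60 reads in Bdp1AA and WT, and a gene was called at 10 percentage points. The share was higher in 5 genes, 0.227% of those compared, among them NSI1 by 32.5 points, ENA5 by 24.8, ENA1 by 15.7 and ENA2 by 15.5. It was lower in 8 genes, 0.363%: SUE1, ATG40, NEJ1, UPS3, BAP2, DLT1, BYE1 and 1 feature without a locus tag. Of these, DLT1 was the gene whose WT cluster lay past the middle, and 54 reads inside DLT1 are listed in the deposited Bdp1AA table at positions under the common minimum. With ends past the middle alone, 5 genes were higher and 1 lower, 0.0454% of 2201. ENA1 and ENA2 share their sequence, so the 5 higher genes are 4 separate loci. Inside reads in Bdp1AA and WT were 39 and 37 for NSI1 and 382 and 492 for ENA5. They were 161 and 239 for ENA1 and 161 and 243 for ENA2. All reads of these genes numbered 81 and 236, 442 and 798, 466 and 1270, and 466 and 1274. These higher shares thus went with fewer downstream reads, not with many more inside reads, in a table with fewer reads.

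The double depletion was then set against Bdp1AA in 1392 genes, which adds the removal of Rna15. The share was higher in 5 genes, 0.359%: RNA15 by 100 points, PBN1 by 65.3, ENA2 by 19.8, ENA1 by 18.7 and CCA1 by 15.7. RNA15 carries the FRB tag in the double depletion alone, so the tag at this locus and the removal of Rna15 cannot be told apart. ENA2 and ENA1 had 62 and 57 inside reads against 161 each in Bdp1AA, of 114 and 107 reads against 466 each. PBN1, a subunit of the mannosyltransferase that builds the membrane anchor GPI, had 49 of 75 reads at a single inside position in the double depletion, and 0 of 546 in Bdp1AA and 0 of 717 in WT. CCA1, the enzyme that adds CCA to tRNA ends, had 31 of 197 inside reads, against 0 of 153 and 0 of 571, and 13 reads inside it are listed in the deposited Bdp1AA table. The share was lower in 4 genes, 0.287%: TIF2 by a difference of -31.3 points, RPS4B by -25.01, NSE5 by -18.1 and RQC1 by -13.5. NSE5, of the Smc5-Smc6 complex, and RQC1, of the ribosome quality control complex, had 17 and 26 inside reads in Bdp1AA and none listed in the double depletion, and TIF2 turns higher when shared downstream positions are left out.

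Against WT, with which both earlier pairs share a group, the double depletion was higher in 7 of 1426 genes (0.491%) and lower in 6 (0.421%), or in 7 (0.492%) and 3 (0.211%) past the middle of the gene. Among the 7 were RNA15, PBN1, ENA2, ENA1, ENA5 and CCA1, with values as given above and the same limit for the tagged RNA15. The 6 were SUE1, YMR253C, TIF2, RPS4B, NSE5 and BAP2. Most genes compared had no inside end in either table and could not be called. Of those with inside ends, 13 of 87 were called in either direction for Bdp1AA against WT (14.9%), 9 of 55 for the double depletion against Bdp1AA (16.4%) and 13 of 85 for the double depletion against WT (15.3%).

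**Figure D4:**
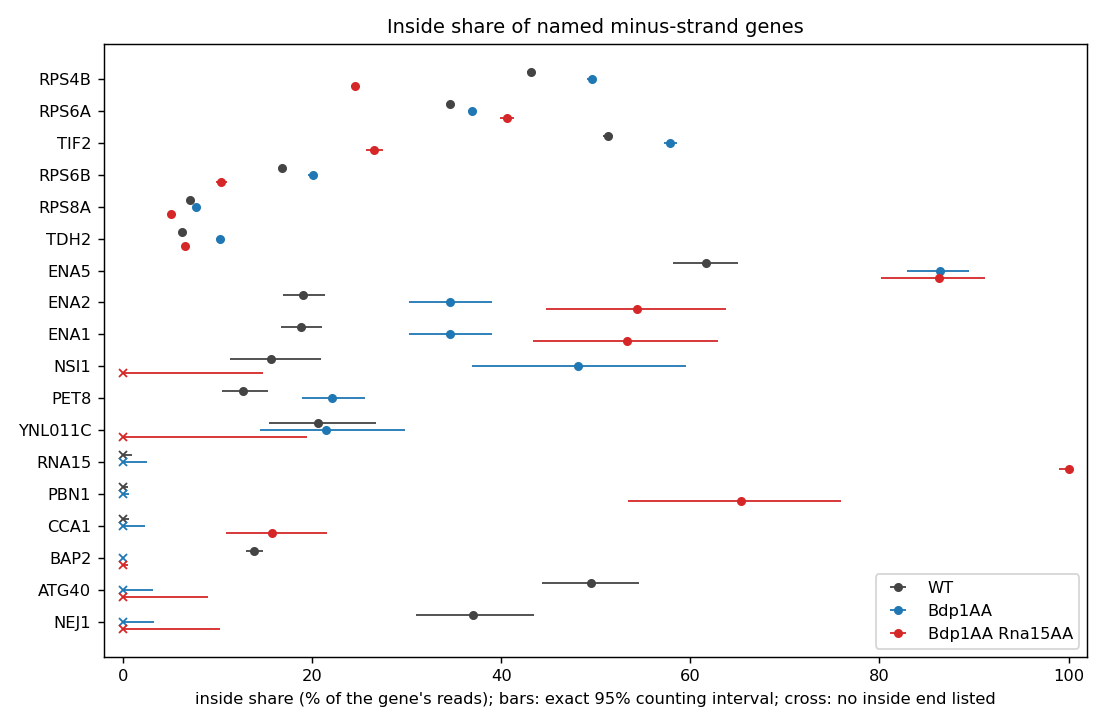
Inside share of named genes as percent of the gene's reads in WT, Bdp1AA and the double depletion, with exact 95% counting intervals. A cross marks a gene listed with no inside end. The pairs at the top have narrow intervals, while PBN1 (65.3%) and NSI1 (48.1% in Bdp1AA) have wide ones.

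The inside signal itself was compared in genes with at least 60 inside reads in either table and inside ends in both, relative to the median gene's downstream signal, which differed by -0.51, -0.34 and -0.85 on the log2 scale for Bdp1AA against WT, the double depletion against Bdp1AA, and the double depletion against WT. At 2-fold, 4 of 28 genes were higher (14.3%) and 3 lower (10.7%) in Bdp1AA than in WT, which became 2 and 7 on the deposited scale. PET8 (log2 ratio 1.30) and TFB5 (1.52), a subunit of the transcription factor TFIIH, were higher, with 2 features without a locus tag. In the double depletion against Bdp1AA none of 17 was higher (0%) and 7 were lower (41.2%), on either scale, while positions down to the deposited minimum gave 7 higher and 13 lower. Genes with inside ends in 1 table alone cannot enter this ratio, so the counts do not give the balance of higher and lower genes. At least 60 inside reads in the double depletion and none counted in Bdp1AA were found for 8 genes. These were YLR154C-G (793 reads), RNA15 (382), YOR192C-C (200), HSP78 (97), TRX1 (62) and 3 features without a locus tag. The reverse held for 5, which were PET8 (140), RIB5 (81), GPM1 (75), TFB5 (66) and 1 such feature. YLR154C-G does have inside reads in Bdp1AA, left out because another gene also lists them, so its place here rests on that rule. RNA15 is tagged in the double depletion alone. Among the 7 lower genes the log2 ratio was -2.41 for CCW12, -1.62 for COS5, -1.504 for RPS8A, -1.32 for RPS6B, -1.31 for TIF2 and -1.05 for TDH3. The ratio was 0.79 for TDH2. Against WT the double depletion had 2 of 21 higher (9.52%), TDH2 at 1.39 and 1 feature without a locus tag, and 7 lower (33.3%), which became 0 and 16 on the deposited scale. A pool of transcripts in bulk RNA does not tell fewer cells with a transcript from less of it per cell.

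Inside ends recurred at the same base between groups. Of 40 WT clusters past the middle of the gene with at least 60 reads, 37 were listed within 2 nt in Bdp1AA (92.5%) and 24 in the double depletion (60%). These matches are not all counted inside ends, since Bdp1AA has none of those in RPL42B, MNN4, RPL13B or RPL7A. Bdp1AA lists positions from 2 reads up and the other groups from 11, so these percentages are not directly comparable. All 27 such Bdp1AA clusters were listed in WT, at the same base, and 16 of 19 double-depletion clusters were. The double depletion has the fewest reads of the 3 tables, 3566952 in minus-strand coding genes against 10834405 in WT and 7444123 in Bdp1AA.

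The bases around inside ends were set beside those at the main downstream end of the same genes. In WT the hexamer TATATA stood within 80 nt before 7.43% of 175 inside ends and 40.9% of 88 downstream ends, and before 1.67% of all positions of these genes. AATAAA within 40 nt before the end was found for 2.86%, 15.9% and 1.94%. Both were searched on the gene's strand, and a stretch could count for both. In Bdp1AA and the double depletion TATATA was found at 9.33% and 13.4% of inside ends and 46.5% and 37.8% of downstream ends. Inside ends outside copied stretches had it in 11.7% of 94 in WT, 12.8% of 39 in Bdp1AA and 2.38% of 42 in the double depletion, and copied ones in 1.35% of 74, 3.13% of 32 and 5% of 20. In the double depletion 9 of the 11 inside ends with TATATA lay in features without a locus tag. A stretch with at least 7 A among the 10 bases after the end was found for 1.71%, 0% and 0% of inside ends, beside 3.41%, 6.98% and 4.44% of downstream ends and 2.04%, 1.67% and 1.69% of all positions. No inside end had AAAAAA within the 20 nt after it. The base directly after the end was A for 58.9% of inside ends in WT, 70.2% of those outside copied stretches and 96.6% of downstream ends. With 1 nt of doubt in printed positions, this base may be the last base of the read and not the one after it.

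**Figure D5:**
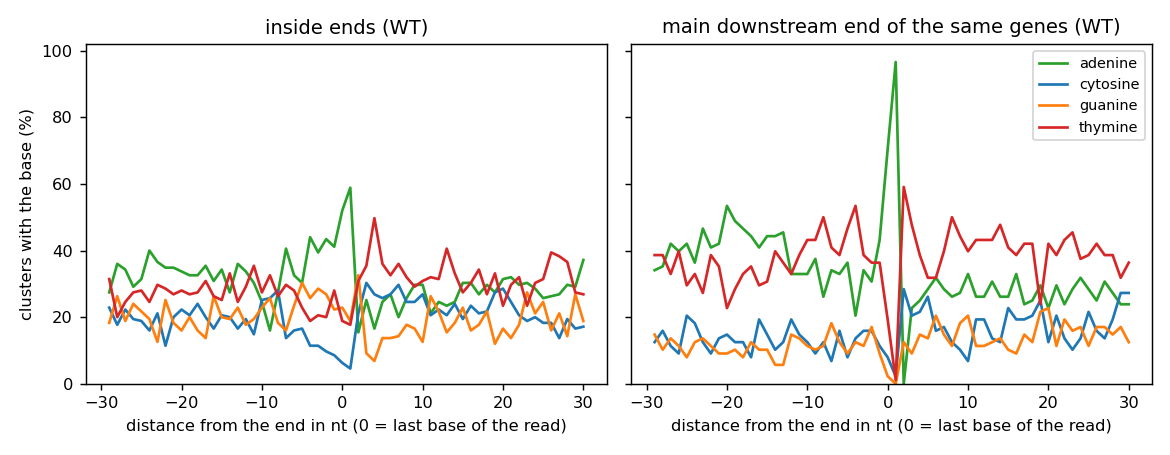
Share of clusters with each base by distance from the end in WT, for inside ends and for the main downstream end of the same genes. Adenine reaches 58.9% at the first base after inside ends and 96.6% after downstream ends, and thymine is more frequent around downstream ends. Positions carry 1 nt of doubt, so that first base may be the last base of the read.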

How the data were processed

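The 9 direct RNA libraries (3 groups of 3) are deposited as 3 tables of 3′ ends with 1 signal column per group. The authors' signal is a scaled number of read ends. Its scale, the aligner and the gene assignment were not given in the sources used here. R64 is the build per the submitters' processing notes. All deposited signal values were whole multiples (within 0.001) of 0.0429, 0.0510 and 0.0758, taken as 1 read. The planned tests over libraries could not be made, and the sizes fixed for this case replaced them. The 3′ UTR lengths in the tables (another deposited value, in nt) were not used. Minus-strand coordinates were read as 0-based and printed 1-based, which leaves 1 nt of doubt. Copies were found with BLAST 2.17.0, and the rest used Python 3.11.15, pandas 2.3.3, numpy 2.4.6 and scipy 1.17.1. Genes were named by strain, by the 10 largest inside signals and the 10 largest shares in WT, by the 8 largest rises and falls per pair and by up to 4 members per list. Features without a RefSeq locus tag are counted, not named, and some genes that the rule names are counted but not reported here. Members and gene lists were chosen with earlier results of these data known. The procedure was tested on simulated data.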

Additional observations from a re-analysis of the deposited data

How the results depend on the processing

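Of 132 values recomputed under alternatives, 61 stayed within their limit and 71 moved. The inside share became 1.11% and 1.07% with the deposited minimum in WT and Bdp1AA, 1.02% and 0.721% with a doubled minimum in WT and the double depletion, and 1.91%, 1.53% and 1.32% with shared inside positions kept. It was 0.104%, 0.0492% and 0.0992% without the last 20 nt, 1.18%, 1.08% and 0.967% with shared downstream positions also left out, and 0.578%, 0.350% and 0.587% with genes weighted equally. It was 1.02% and 0.708% without the first 200 nt (WT, double depletion), 1.01% past the middle (WT), and, in the double depletion, 0.711% without positions shared in any table and 0.720% with locus tags only.

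The share of inside reads in the last 10% of the gene became 88.0% and 83.4% with the deposited minimum (WT, Bdp1AA), 96.3%, 98.5% and 94.1% with the doubled one, 63.9%, 80.3% and 64.6% with shared positions kept, 31.7%, 51.2% and 38.9% with genes weighted equally, and 39.5%, 52.8% and 36.2% without the 6 largest genes.

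The counts of called genes moved as follows, higher before lower. For Bdp1AA against WT the share gave 29 and 21 with the deposited minimum, 2 and 4 at 20 points, 1 lower at 200 reads, 25 lower with shared positions kept and 1 lower past the middle. Its signal gave 2 and 7 on the deposited scale, 40 and 13 with the deposited minimum, and 0 and 1 at 200 inside reads. For the double depletion against Bdp1AA the share gave 2 and 2 with the doubled minimum and at 20 points, 0 and 2 at 200 reads, 12 lower with the deposited minimum, 14 lower with shared positions kept, 2 lower without the last 20 nt, and 10 higher with shared downstream positions left out. Its signal gave 7 and 13 with the deposited minimum. For the double depletion against WT the share gave 2 and 3 at 200 reads, 12 higher with shared downstream positions left out, and 10, 29, 3 and 3 lower with the deposited minimum, shared positions kept, past the middle and at 20 points. Its signal gave 0 and 16 on the deposited scale, 11 lower with the deposited minimum and 1 higher at 200 inside reads. TIF2 turned from lower to higher in the double depletion without shared downstream positions.

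The alternatives past the middle, with shared downstream positions left out and without the 6 genes were chosen after seeing the data. No paired analysis was possible because every table pools its libraries, which also leaves no library to leave out. Shares of genes with under 60 inside reads are imprecise, as for PBN1 (53.5 to 76.0%), and ends under the listing minimum are not seen.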
